A study of Mus musculus with 8 samples.

Results

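The transcripts of 10 secreted matrix glycoproteins and proteoglycans were followed in NIH3T3 cells, an immortalised mouse fibroblast line: Fn1, Thbs1, Thbs2, Tnc, Sparc, Postn, Vcan, Bgn, Dcn and Lum. They were taken by name as 10 of the 23304 gene symbols in the count tables. Of these, 9 passed the filter on low counts, among 12807 genes tested, and Lum did not. RNA sequencing covered 8 libraries in 4 labelled groups of 2. WT stands for unedited cells and KO for cells with a CRISPR knockout of Zmynd11, which encodes a chromatin reader of methylated histone H3.3. Both were sampled untreated (0 h) or after 2 h with recombinant mouse interferon-β (IFN-β) at 100 units/ml, and all groups were grown with donor bovine serum and carry the strain label Swiss albino. The labels leave unsaid whether the KO cells are 1 clone. They also leave unsaid whether replicates are separate cultures, and the p-values therefore reflect only how far these samples vary, possibly for technical reasons. The extraction text speaks of embryonic fibroblasts, while the source is given as NIH3T3.

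Fibroblasts secrete these proteins to build and tune the matrix around them. Fibronectin is laid down as fibrils that cells hold through integrins, while thrombospondins, tenascin-C, SPARC and periostin are matricellular proteins that change how cells adhere and how collagen is assembled. Versican is a large chondroitin sulphate proteoglycan that binds hyaluronan, and biglycan, decorin and lumican are small leucine-rich proteoglycans that bind collagen fibrils.

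Gene reads summed to 13671013 to 21299120 per library, and 1 read was worth 0.0460 to 0.0700 CPM, the unit of level used below, which divides the reads of a gene by a library size scaled with TMM. KO 0 h replicate 2 stands apart, with reads on 17498 genes, while the other 7 libraries had reads on 14847 to 15945. Reads in no annotated gene made up 12.8 to 13.3% of reads in the other 3 libraries labelled 0 h, 15.8 to 17.2% in the 4 labelled 2 h and 17.3% in KO 0 h replicate 2. Of 10 fibroblast markers, 9 were read at 1 CPM or more in every group, and Fap had at most 7 reads in a library. Summed markers of epithelium, endothelium, skeletal muscle and adipocytes lay between 0 and 17.6 CPM, and those of leukocytes between 35.4 and 74.2 CPM, with Cd3e at 0 reads in each group. The 5 chondrocyte markers summed to 188.5 to 258 CPM, mainly Sox9. Acan and Col9a1 had no reads under the 2 h labels, and at most 3 and 16 reads in a 0 h library.

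Zmynd11, the edited gene, was read at 120.4 to 123 CPM in WT 0 h and at 131 and 137 CPM in KO 0 h, against 3.18 and 3.61 CPM in WT 2 h and 3.31 and 4.69 CPM in KO 2 h. This goes against the genotype labels of KO 0 h and WT 2 h. The interferon-induced gene Ifit1 divided the libraries the other way, with 1.22 to 3.95 CPM under the WT labels and 196 to 396 CPM under the KO labels. Isg15, another such gene, stood at 3.51 to 5.16 CPM and at 64.4 to 74.1 CPM. In WT 2 h, labelled with IFN-β, Ifit1 was at 1.73 and 3.95 CPM and Isg15 at 3.51 and 3.61 CPM. In KO 0 h, labelled untreated, Ifit1 was at 196 and 229 CPM and Isg15 at 70.5 and 64.4 CPM. These levels go against the IFN-β labels of WT 2 h and KO 0 h, and the cause was not tested. Groups are therefore named below as the libraries are labelled, and each direction is one between labels. The time label, the IFN-β label and the level of Zmynd11 change together in these libraries and cannot be told apart.

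Sparc, Postn, Dcn, Bgn and Vcan fell between the 0 h and 2 h labels, 2.22- to 4.51-fold in WT and 2.395- to 4.82-fold in KO. Thbs1 was higher in both comparisons, by 1.26- and 1.38-fold. Fn1, Thbs2 and Tnc lay within 1.13-fold in both, and Lum was hardly read. Of the 9 tested members, edgeR called 6 in WT, where 61.2% of all tested genes were called. Of these, 5 were lower and 1 higher, against 31.1% and 30.1% of all genes. In KO it called 8, where 61.1% of all genes were called, 6 lower and 2 higher against 31.2% and 30% of all genes. The share of members called in WT is near that of all genes. CPM did not overlap between the time labels for 9 of 9 members in WT, against 82.6% of all genes, and for 8 of 9 in KO, against 77.5%. Calls with a fall of at least 2-fold covered 5 of the 9 members in each comparison and 8.2% of all genes in WT and 8.42% in KO. The median log2 fold change of the 9 members was -1.15 in WT and -1.26 in KO, against 0.01 and -0.0053 for all tested genes. Members were chosen with earlier results of these data known, so these contrasts with all genes describe the members and test nothing. The WT and KO comparisons share no library, but they come from 1 fit with a shared estimate of spread. Their p-values are therefore not independent.

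**Figure D1:**
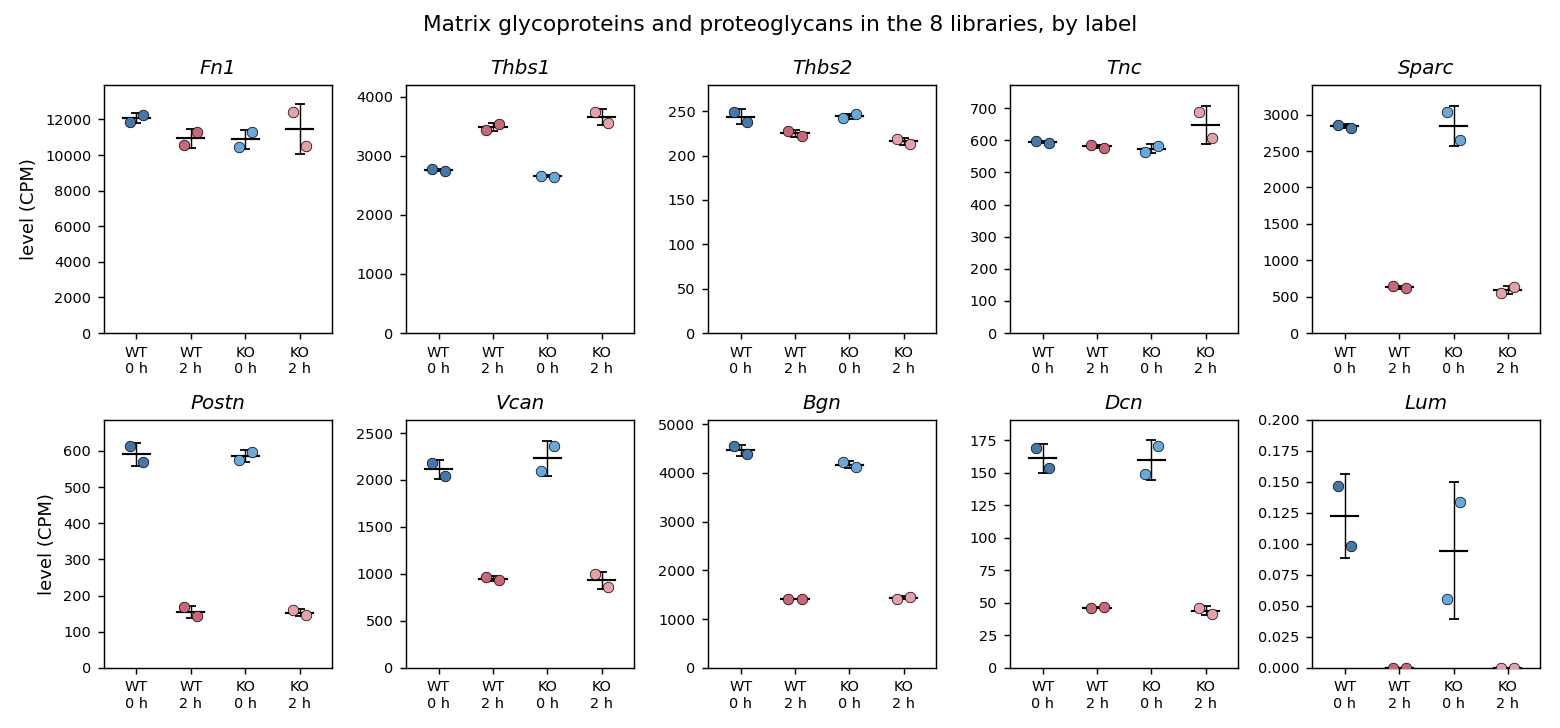
Level of each of the 10 genes in CPM (linear axis from 0) in the 4 labelled groups; points are libraries, the horizontal line is the mean and the bar is 1 SD (n = 2). Sparc, Postn, Vcan, Bgn and Dcn stand lower in both 2 h groups than in both 0 h groups, Thbs1 stands higher, and Lum has no reads under the 2 h labels.

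Sparc encodes a collagen-binding glycoprotein of the matrix and showed the largest fall of the 9 members. It stood at 2861 and 2822 CPM in WT 0 h, 646 and 616 in WT 2 h, 3043 and 2648 in KO 0 h and 552 and 629.9 in KO 2 h. Every 2 h library lay below every 0 h library, at a mean of 22.2% of the 0 h level in WT and 20.8% in KO. The log2 fold change was -2.17 in WT (SE 0.09, edgeR adjusted p = 1.69e-15) and -2.27 in KO (SE 0.09, edgeR adjusted p = 8.96e-16).

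Postn encodes periostin, which links collagen to other matrix proteins. Its level was 613 and 569 CPM in WT 0 h and 167 and 144 in WT 2 h, and 574 and 597 in KO 0 h and 160.2 and 145 in KO 2 h. The 2 h libraries held 26.3% of the 0 h mean in WT and 26.1% in KO, again without overlap. Postn fell by 1.93 on the log2 scale in WT (SE 0.08, edgeR adjusted p = 1.09e-14) and its log2 fold change was -1.94 in KO (SE 0.08, edgeR adjusted p = 1.05e-14).

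Among the proteoglycans, Bgn, which encodes biglycan, was read at 4545 and 4382 CPM in WT 0 h, 1404 and 1402 in WT 2 h, 4222 and 4114 in KO 0 h and 1414 and 1462 in KO 2 h. The groups with the same time label lay close together and the time labels did not overlap. Bgn fell by 1.67 on the log2 scale in WT (SE 0.07, edgeR adjusted p = 1.09e-14) and its log2 fold change was -1.54 in KO (SE 0.07, edgeR adjusted p = 5.07e-14).

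Dcn encodes decorin, a relative of biglycan that also binds TGF-beta. It was read at 169 and 153 CPM in WT 0 h and 45.9 and 46.6 in WT 2 h, and at 149 and 170.4 in KO 0 h and 46.3 and 41.3 in KO 2 h. The 2 h level was 28.7% of the 0 h mean in WT and 27.5% in KO. Dcn fell by 1.80 on the log2 scale in WT (SE 0.09, edgeR adjusted p = 1.59e-13) and its log2 fold change was -1.86 in KO (SE 0.09, edgeR adjusted p = 1.12e-13). Reads of Bgn per read of Dcn numbered 24.1 to 28.6 in the 0 h libraries and 30.1 to 35.4 in the 2 h libraries.

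Vcan encodes the large proteoglycan versican and showed the smallest of the 5 falls. Its level was 2183 and 2041 CPM in WT 0 h, 966 and 935 in WT 2 h, 2099.7 and 2359 in KO 0 h and 996 and 866 in KO 2 h. The 2 h libraries lay at 45.0% of the 0 h mean in WT and 41.7% in KO. The log2 fold change was -1.15 in WT (SE 0.08, edgeR adjusted p = 5.18e-11) and -1.26 in KO (SE 0.08, edgeR adjusted p = 1.25e-11).

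Lum, the gene of lumican, had 3 and 2 reads in WT 0 h, 1 and 2 in KO 0 h and 0 in each of the 4 libraries labelled 2 h. Each count is at or under 3 reads, which a count of 0 allows and which corresponds to 0.138 to 0.210 CPM, so no fold is given. A count limit of this kind covers counting error only. In the RefSeq gene order of the GRCm38.p6 assembly, Lum, Kera and Epyc, all small leucine-rich proteoglycan genes, follow Dcn on chromosome 10. Kera and Epyc had at most 2 reads and 1 read in a library, against 590 to 3463 reads of Dcn.

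Of the 10 fibroblast markers, 7 lay lower in both 2 h libraries than in both 0 h libraries under each genotype label (Col1a1, Col1a2, Col3a1, Pdgfra, Pdgfrb, Vim and Prrx1), where 82.6% of all genes in WT and 77.5% in KO had groups that did not overlap in either direction. Their summed level, most of it Col1a1, Col1a2 and Vim, was 29007 to 32403 CPM in the 0 h libraries and 7704 to 8242 CPM in the 2 h libraries. Thy1 went the other way, with 95.5 to 106.6 CPM in the 0 h libraries and 125.6 to 129.7 CPM in the 2 h libraries. Twist1, at 50.6 to 72.2 CPM, and Fap overlapped between the time labels.

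Sums of markers of other cell types also differed. The 6 endothelial markers summed to 2.46 to 5.35 CPM in the 0 h libraries and 12.2 to 14.7 CPM in the 2 h libraries, a difference carried by Vwf, at 0.166 to 1.203 and 9.81 to 12.5 CPM. The endothelial cadherin gene Cdh5 was lower in the 2 h libraries, at 0.445 to 1.121 CPM against 1.56 to 1.80 CPM. Emcn had no reads there and at most 4 reads in a 0 h library. The 5 skeletal muscle markers summed to 3.31 to 3.78 CPM and 15.2 to 17.6 CPM, carried by Des. Myog had no reads in the 2 h libraries and at most 4 reads in a 0 h library. The leukocyte sum was 35.4 to 35.9 CPM in WT 0 h and 53.5 to 55.04 CPM in WT 2 h, mainly Lyz2, and overlapped between the KO groups, while the epithelial sum was 6.20 to 7.18 CPM at 0 h and 3.13 to 3.99 CPM at 2 h. The part of these in the results was not tested. In bulk RNA, fewer cells of a type and less RNA per cell cannot be told apart.

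The thrombospondin genes parted. Thbs1 encodes thrombospondin-1, which limits angiogenesis and can release active TGF-beta. Its level was 2778 and 2746 CPM in WT 0 h, 3441 and 3542 in WT 2 h, 2663 and 2639 in KO 0 h and 3751 and 3559 in KO 2 h. Each 2 h library lay above each 0 h library. Thbs1 rose by 0.34 on the log2 scale in WT (SE 0.07, edgeR adjusted p = 0.000311) and by 0.46 in KO (SE 0.07, edgeR adjusted p = 7.52e-06), and neither passed a test against a fold of 1.5.

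Thbs2, its paralogue, stood at 249.6 and 238 CPM in WT 0 h, 228 and 222 in WT 2 h, 242 and 246 in KO 0 h and 219 and 213 in KO 2 h. The 2 h libraries lay a little lower without overlap. The log2 fold change did not pass in WT (-0.11, 95% interval -0.26 to 0.04, edgeR adjusted p = 0.177) and passed in KO (-0.18, 95% interval -0.33 to -0.03, edgeR adjusted p = 0.0393). That call was lost with the replicate number as a block (edgeR adjusted p = 0.0704) and without any 1 of the 8 libraries (edgeR adjusted p 0.0835 to 0.22). Under library size alone the log2 fold change in KO was -0.03 (edgeR adjusted p = 0.755). Reads of Thbs1 per read of Thbs2 numbered 10.7 to 11.5 in the 0 h libraries and 15.1 to 17.1 in the 2 h libraries, a ratio that library scaling does not touch.

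Tnc encodes tenascin-C, which interferes with adhesion to fibronectin. It was read at 597 and 591 CPM in WT 0 h, 584 and 577 in WT 2 h, 564 and 583 in KO 0 h and 689.6 and 606 in KO 2 h. The highest of these is KO 2 h replicate 1, and the other 7 libraries lie between 564 and 606 CPM. No change passed in WT (-0.03, 95% interval -0.19 to 0.12, edgeR adjusted p = 0.731). In KO the log2 fold change was 0.18 (95% interval 0.02 to 0.33, edgeR adjusted p = 0.0481). This call was lost with the replicate block (edgeR adjusted p = 0.0821) and without WT 0 h replicate 1, WT 0 h replicate 2, KO 0 h replicate 1 or KO 2 h replicate 1. Over the 8 libraries left out in turn the edgeR adjusted p ran from 0.00768 to 0.355, and without KO 2 h replicate 1 the log2 fold change was 0.10.

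Fn1, the gene of fibronectin, was read at 11875 and 12262 CPM in WT 0 h, 10570.3 and 11293 in WT 2 h, 10481 and 11273 in KO 0 h and 12447 and 10484 in KO 2 h. The KO groups overlapped and the WT groups did not. The log2 fold change was -0.14 in WT (95% interval -0.32 to 0.03, edgeR adjusted p = 0.15) and 0.08 in KO (95% interval -0.10 to 0.25, edgeR adjusted p = 0.451). Neither passed, and the intervals exclude a 2-fold change in either direction. Scaling by library size alone moved the median of all genes by 0.14 in WT and 0.15 in KO. Under it Fn1 came to -0.0031 in WT and to 0.22 in KO (edgeR adjusted p = 0.0217), and Thbs2 and Tnc turned positive in WT. With only the WT libraries in the fit, the value of Fn1 was -0.13 (edgeR adjusted p = 0.0448). Relative to the other genes, differences of the size seen for Fn1, Thbs2 and Tnc thus depend on the scaling, while the 5 falls and the rise of Thbs1 were called under each scaling.

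**Figure D2:**
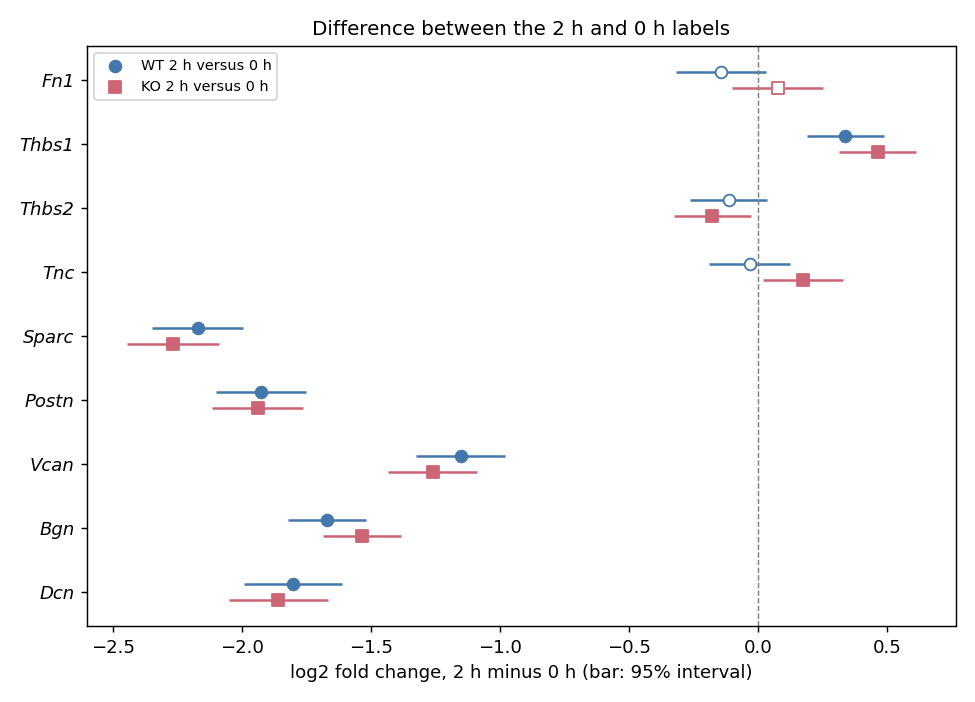
Log2 fold change of the 9 tested members between the 2 h and 0 h labels (x axis, 2 h minus 0 h) in WT (circles) and KO (squares), with 95% intervals from the edgeR model; filled symbols were called at an adjusted p below 0.05. The values run from -2.27 for Sparc in KO to 0.46 for Thbs1 in KO.

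Summed, the 10 genes took 2.24 to 2.49% of gene reads in the 0 h libraries and 1.88 to 2.12% in the 2 h libraries. The 5 genes that fell, grouped after their values were seen, went from 0.939 to 0.997% down to 0.328 to 0.339% of gene reads. Fn1, Thbs1, Thbs2 and Tnc together held 1.298 to 1.51% and 1.55 to 1.79%. Reads of Thbs1 per read of Sparc numbered 0.875 to 0.996 in the 0 h libraries and 5.33 to 6.799 in the 2 h libraries.

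The order of the members by level shifted as well. Levels of different genes are compared as CPM per kilobase of merged protein-coding exons in the GENCODE M21 annotation, which is not the annotation of the counts. In WT 0 h the order began with Bgn at 1845 ± 47.7 CPM per kilobase (mean ± SD, n = 2), followed by Fn1 at 1423 ± 32.3, Sparc at 1044 ± 10.3 and Thbs1 at 472 ± 3.96. Postn (179.6 ± 9.504), Vcan (152 ± 7.24), Dcn (76.7 ± 5.34), Tnc (76.4 ± 0.477) and Thbs2 (41.3 ± 1.41) came next. Dcn and Tnc overlapped between libraries, and no other neighbours did.

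In WT 2 h, Fn1 led at 1289 ± 60.3 CPM per kilobase, ahead of Thbs1 (597 ± 12.2), Bgn (580.2 ± 0.582), Sparc (232 ± 7.82) and Tnc (74.7 ± 0.624). Vcan (68.4 ± 1.58), Postn (47.2 ± 5.05), Thbs2 (38.2 ± 0.675) and Dcn (22.0 ± 0.238) followed, with no overlap between neighbours. Dcn thus moved to place 9 from place 7, where it overlapped with Tnc, and Thbs1 moved from place 4 to place 2. The KO groups gave the WT order at the same time label, and the length of the longest transcript in place of merged exons left each place as it was.

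The 5 genes that fell divided the libraries as Zmynd11 did and not as Ifit1 did. Relative to the WT 0 h mean, Sparc stood at -2.14 and -2.21 on the log2 scale in WT 2 h, at 0.10 and -0.10 in KO 0 h and at -2.36 and -2.17 in KO 2 h. For Zmynd11 the values were -5.25 and -5.07, 0.18 and 0.11, and -5.20 and -4.69 in the same order. For Ifit1 they were 0.41 and 1.603, 7.24 and 7.46, and 8.25 and 8.19. The 5 genes were grouped by their fall between the time labels, which Zmynd11 also divides, so this likeness was fixed by that choice. Of all tested genes, 31.1% in WT and 31.2% in KO were called lower between the same labels. The pattern is a description of 8 libraries, and the role of Zmynd11 in it was not tested.

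**Figure D3:**
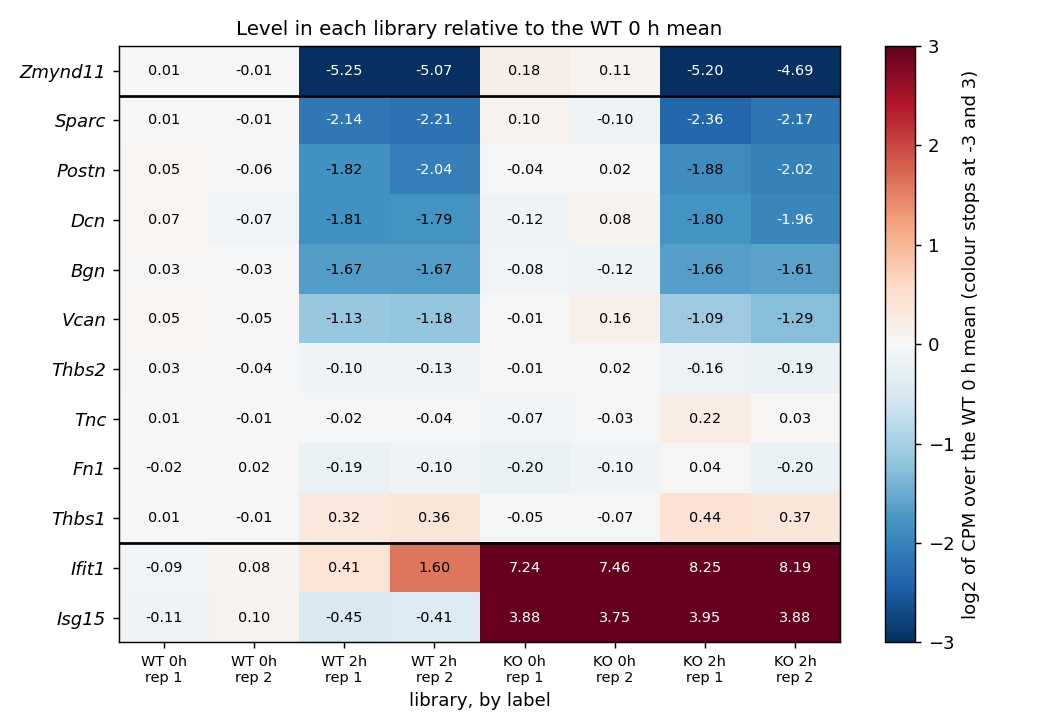
Log2 of the CPM in each library over the mean of WT 0 h, for Zmynd11, the 9 tested members, Ifit1 and Isg15 (rows) in the 8 labelled libraries (columns); blue is lower, red is higher, and the colour stops at -3 and 3. Sparc, Postn, Dcn, Bgn and Vcan are blue in the 4 libraries where Zmynd11 is blue, while Ifit1 is at 7.24 or above in the 4 KO libraries.

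Between the KO and WT labels the 9 members lay close together. Zmynd11 itself differed little between these labels, at 120.4 and 123 CPM in WT 0 h against 131 and 137 CPM in KO 0 h. At 2 h it stood at 3.18 and 3.61 CPM in WT against 3.31 and 4.69 CPM in KO. Ifit1 did differ, at 1.22 and 1.38 against 196 and 229 CPM at 0 h. Its levels at 2 h were 1.73 and 3.95 against 396 and 380 CPM. The comparisons of KO with WT thus do not set high against low Zmynd11 levels. By edgeR 0 of 9 were called at 0 h, where 3.92% of all genes were called, and 0 of 9 at 2 h, where 1.6% were. DESeq2 also called 0 in both. Unadjusted p-values below 0.05 numbered 0 at 0 h and 1 at 2 h, for Tnc (edgeR adjusted p = 0.941). CPM did not overlap between the labels for 4 of 9 members at 0 h and for 4 of 9 at 2 h, against 51.5% and 29.7% of all genes. These comparisons use the same libraries as the ones between time labels.

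At 0 h the log2 fold changes, KO minus WT, ran from -0.15 for Fn1 to 0.08 for Vcan, and at 2 h from -0.09 for Sparc to 0.16 for Tnc. The 95% intervals of the 9 members spanned -0.33 to 0.25 at 0 h and -0.27 to 0.31 at 2 h, so differences of 2-fold lay outside each of them. For Sparc the difference was 0.0023 at 0 h (95% interval -0.17 to 0.17) and -0.09 at 2 h (95% interval -0.27 to 0.08). For Tnc it was -0.05 at 0 h (95% interval -0.21 to 0.11) and 0.16 at 2 h (95% interval 0.0017 to 0.31). The latter was 0.05 without KO 2 h replicate 1 and 0.24 without KO 2 h replicate 2. The fitted values do not show that the labels are alike for these genes, since smaller differences fall within the intervals.

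The interaction asks whether the difference between 2 h and 0 h was the same under the WT and KO labels. By edgeR and by DESeq2 0 of the 9 members were called, 0 had an unadjusted p below 0.05, and 0.133% of all genes were called by edgeR. The largest values were 0.22 for Fn1 (95% interval -0.03 to 0.47, edgeR adjusted p = 0.459) and 0.21 for Tnc (95% interval -0.01 to 0.43, edgeR adjusted p = 0.424). Without KO 2 h replicate 1 they were 0.08 and 0.10, and without KO 2 h replicate 2 they were 0.33 and 0.29, none of them called. The call of Thbs2 and Tnc in KO alone is therefore not shown to differ from WT. For the 5 genes that fell, the interaction lay between -0.11 for Vcan and 0.13 for Bgn.

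**Figure D4:**
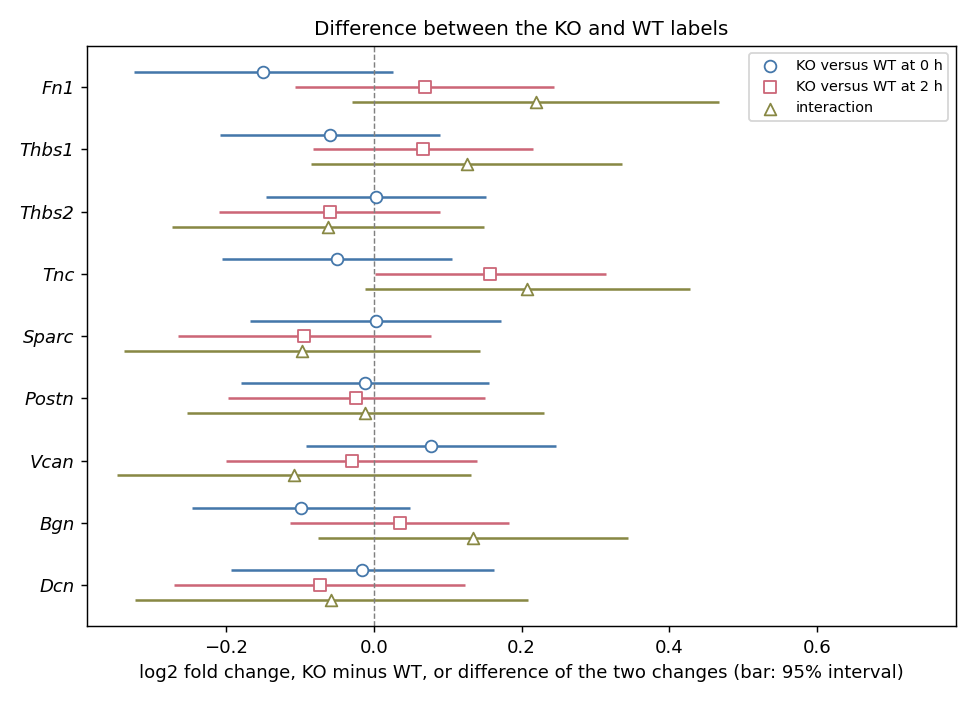
Log2 differences of the 9 tested members between the KO and WT labels at 0 h (circles) and 2 h (squares), and the interaction (triangles), with 95% intervals; open symbols were not called. The intervals at 0 h and 2 h stay between -0.33 and 0.31 on the log2 scale. The level of Zmynd11 itself differs little between the KO and WT labels at either time label.

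Promoter sequences are shown for members that fell together and, for contrast, for Thbs2 and Tnc, which moved little. The RefSeq promoter table of GRCm38.p6 held a window for 6 of the 10 members: Sparc, Postn, Vcan, Bgn, Thbs2 and Tnc. It held none for Fn1, Thbs1, Dcn and Lum. Each line gives the 250 bases before the annotated start, 5′ to 3′ in the direction of transcription, with coordinates of that build. For Postn and Tnc, with 2 windows each, the more downstream start was taken. Capitals mark matches, on either strand, to 1 of 5 short motifs: the TATA element TATAAA, the AP-1 element TGANTCA, the TEAD element GGAATG, the interferon response element core, which is GAAA, any 2 bases and GAAA again, and the CCAAT box CCAAT.
Sparc, chr11:55420081-55420330, minus strand: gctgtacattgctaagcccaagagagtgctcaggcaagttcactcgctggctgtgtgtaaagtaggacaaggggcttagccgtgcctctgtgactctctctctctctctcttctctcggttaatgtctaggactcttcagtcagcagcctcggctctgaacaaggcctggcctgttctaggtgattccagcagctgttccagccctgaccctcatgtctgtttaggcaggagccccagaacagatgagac
Postn, chr3:54360857-54361106, plus strand: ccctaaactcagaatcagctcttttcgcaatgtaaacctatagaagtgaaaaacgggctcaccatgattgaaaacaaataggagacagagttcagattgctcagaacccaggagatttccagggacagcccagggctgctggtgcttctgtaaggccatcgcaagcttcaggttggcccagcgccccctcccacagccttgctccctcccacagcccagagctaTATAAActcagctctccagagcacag
Vcan, chr13:89742513-89742762, minus strand: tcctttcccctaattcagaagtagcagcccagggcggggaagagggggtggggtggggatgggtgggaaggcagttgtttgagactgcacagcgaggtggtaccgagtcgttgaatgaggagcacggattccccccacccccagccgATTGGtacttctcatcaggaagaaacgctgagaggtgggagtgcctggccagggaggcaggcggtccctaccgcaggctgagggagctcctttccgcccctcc
Bgn, chrX:73483351-73483600, plus strand: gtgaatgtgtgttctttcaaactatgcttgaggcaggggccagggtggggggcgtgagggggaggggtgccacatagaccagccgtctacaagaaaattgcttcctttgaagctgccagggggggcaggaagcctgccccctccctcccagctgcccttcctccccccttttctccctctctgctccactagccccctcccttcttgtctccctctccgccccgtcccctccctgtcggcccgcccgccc
Thbs2, chr17:14694263-14694512, minus strand: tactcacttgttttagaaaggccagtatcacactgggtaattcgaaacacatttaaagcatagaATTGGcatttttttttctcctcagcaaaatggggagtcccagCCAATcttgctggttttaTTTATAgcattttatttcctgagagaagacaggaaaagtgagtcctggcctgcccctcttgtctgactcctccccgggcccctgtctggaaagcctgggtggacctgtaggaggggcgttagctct
Tnc, chr4:64046937-64047186, minus strand: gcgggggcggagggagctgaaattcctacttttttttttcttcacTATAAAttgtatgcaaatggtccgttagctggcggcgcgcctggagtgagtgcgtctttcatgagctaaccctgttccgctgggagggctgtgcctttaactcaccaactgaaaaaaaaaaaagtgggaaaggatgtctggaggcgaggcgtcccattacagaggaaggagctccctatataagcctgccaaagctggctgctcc

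The windows of Sparc and Bgn held no match. TATAAA lay 26 bases before the start in Postn, 205 in Tnc and, on the other strand, 126 in Thbs2. Only exact matches were marked, so the similar letters tatataag near the end of the Tnc window are not counted. CCAAT or its complement lay once in Vcan, 103 bases before the start, and at 186 and 144 bases in Thbs2, and no matches overlapped. Among 32851 windows of this length in the table, 12.4% held TATAAA, 33.8% CCAAT, 6.75% TGANTCA, 12.6% GGAATG and 2.98% the interferon response element core. The last 3 motifs occurred in none of the 6 windows shown, which says only that these letters are not there.

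Other genes of the same matrix were described through 6 lists. Counts of higher and lower genes in these lists are edgeR calls, to be read beside the 30.1% of all tested genes called higher and 31.1% called lower in WT, and the 30% and 31.2% in KO. In the list of 12 further small leucine-rich proteoglycans, the relatives of Bgn and Dcn, 8 were tested, of which 6 were called lower and 2 higher in WT 2 h than in WT 0 h, and 5 and 1 in KO (medians -1.48 and -1.68). Aspn, which encodes asporin, fell from 59.7 ± 10.6 to 1.83 ± 0.233 CPM in WT (mean ± SD, n = 2) and from 57.3 ± 9.05 to 2.89 ± 0.769 in KO. Fmod, the fibromodulin gene, had no reads under the 2 h labels and was at least 26.8-fold lower in WT and 11.3-fold lower in KO, against 3 reads over the group; placing it at these bounds leaves both medians as they are. Prelp fell by 2.95 on the log2 scale in WT (SE 0.13) and its log2 fold change was -2.81 in KO (SE 0.14). Podnl1 rose from 27.9 ± 1.03 to 53.9 ± 3.602 CPM in WT and from 24.97 ± 4.50 to 54.5 ± 1.36 in KO. Chad was called higher in WT, by 1.13 on the log2 scale (SE 0.48, edgeR adjusted p = 0.0486), but not in KO (0.35, SE 0.50, edgeR adjusted p = 0.561).

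Of 28 tested glycoproteins among 36, 12 were called higher and 12 lower in WT, and 12 and 13 in KO, with medians of 0.04 and -0.32. The laminin chain genes Lama5 and Lama4 moved apart, Lama5 from 0.685 ± 0.274 to 11.9 ± 0.837 CPM and Lama4 from 104 ± 7.72 to 10.6 ± 0.453 CPM in WT. In KO, Lama5 went from 0.771 ± 0.232 to 13.0 ± 2.001 CPM and Lama4 from 97.7 ± 3.40 to 9.68 ± 0.417. Smoc1, a relative of Sparc, fell from 24.1 ± 3.04 to 1.89 ± 0.310 CPM in WT and from 20.1 ± 1.85 to 2.11 ± 0.00933 in KO. Nov, a CCN family gene, and Spock2, a testican gene, were called higher in both comparisons at low levels. Nov stood at 0.171 ± 0.0339 and 1.51 ± 0.0701 CPM in WT 0 h and 2 h, and Spock2 at 0.0668 ± 0.0945 and 0.823 ± 0.124 CPM in KO 0 h and 2 h. Agrn, the gene of the heparan sulphate proteoglycan agrin, was the 1 gene of the lists called in the interaction (0.58, SE 0.11, edgeR adjusted p = 0.0201). Of all tested genes, 0.133% were called in the interaction. Agrn fell from 165 ± 3.48 to 77.4 ± 3.82 CPM in WT and from 190.5 ± 6.50 to 134 ± 1.14 CPM in KO.

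Of 13 tested large and cell surface proteoglycans among 18, 8 were called lower and 2 higher in both comparisons, with medians of -0.81 in WT and -0.52 in KO. The syndecan gene Sdc1 fell from 117 ± 2.63 to 33.4 ± 0.0375 CPM in WT and from 101 ± 12.8 to 35.8 ± 4.87 in KO, while the glypican gene Gpc6 rose from 29.7 ± 1.85 to 79.1 ± 0.712 and from 30.7 ± 5.04 to 72.4 ± 3.75 CPM. Tgfbr3, the gene of betaglycan, rose by 0.39 on the log2 scale in WT (SE 0.09) and by 0.35 in KO (SE 0.09). The glypican gene Gpc3 had 23 reads in WT 0 h and 2 in WT 2 h, a ratio of 10.3 with a 95% counting interval of 2.54 to 90.05. In KO it had 39 reads at 0 h and 1 at 2 h, a ratio of 42.5 with an interval of 7.19 to 1720.4.

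Of 22 tested genes of glycosaminoglycan synthesis among 26, 9 were called lower and 6 higher in WT and 8 and 4 in KO, with medians of -0.19 and -0.11. These 15 and 12 calls are near the share of all genes, 61.2% in WT and 61.1% in KO. Csgalnact1, which starts chondroitin chains, fell from 64.7 ± 0.645 to 29.2 ± 0.2999 CPM in WT and from 71.2 ± 1.61 to 27.5 ± 0.791 in KO. B4galt7, an enzyme of the linkage to the core protein, rose from 11.8 ± 1.23 to 24.3 ± 1.36 and from 9.14 ± 0.263 to 21.6 ± 0.791 CPM. Of the hyaluronan synthases, Has1 rose from 2.55 ± 0.475 to 4.49 ± 0.0162 CPM in WT and from 2.21 ± 0.469 to 4.69 ± 0.980 in KO. Has2 fell from 85.3 ± 3.12 to 41.99 ± 0.441 CPM in WT and from 128 ± 15.3 to 46.6 ± 3.09 in KO.

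Has2 and 3 other genes of this list were also called between the KO and WT labels at 0 h, 4 of 22 tested, where 3.92% of all genes were called. Has2 was higher under the KO label (a log2 difference of 0.59, SE 0.09, edgeR adjusted p = 0.000137). So was Ugdh (0.27, SE 0.07, edgeR adjusted p = 0.0359), which makes a sugar donor for these chains. Chpf (-0.45, SE 0.08, edgeR adjusted p = 0.00223) and Chpf2 (-0.38, SE 0.09, edgeR adjusted p = 0.0164), which take part in chondroitin polymerisation, were lower. Cspg4, a membrane proteoglycan, was lower as well (-0.30, SE 0.09, edgeR adjusted p = 0.0492). Zmynd11 was read at 120.4 and 123 CPM in WT 0 h and at 131 and 137 CPM in KO 0 h. Ifit1 stood at 1.22 and 1.38 CPM against 196 and 229 CPM in these groups. At 2 h the 1 call over the 6 lists was Agrn, 1 of 28 tested glycoproteins, where 1.6% of all genes were called. Agrn was higher under the KO label (0.79, SE 0.08, edgeR adjusted p = 1.54e-07). Zmynd11 was at 3.18 and 3.61 CPM in WT 2 h and at 3.31 and 4.69 CPM in KO 2 h. The cause of these differences was not tested.

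Of 21 tested receptor genes among 22, 7 were called higher and 5 lower in WT and 10 and 6 in KO, with medians of 0.26 and 0.03. The 12 calls in WT are near the 61.2% of all genes. Cd36, a receptor of thrombospondin-1, rose from 1.37 ± 0.0749 to 14.3 ± 0.299 CPM in WT and from 2.11 ± 0.798 to 13.96 ± 2.25 in KO. The integrin gene Itga6 fell from 143 ± 1.67 to 72.1 ± 0.845 and from 145 ± 1.36 to 71.04 ± 3.09 CPM. Itgb3 fell from 21.3 ± 1.33 to 11.3 ± 0.313 and from 20.6 ± 0.391 to 12.6 ± 3.14 CPM. The collagen-binding integrin genes Itga2 (1.96 in WT and 1.26 in KO) and Itga1 (1.49 and 1.62) had log2 fold changes that were called in both comparisons, at low levels. Itga2 went from 1.18 ± 0.203 to 4.60 ± 0.291 CPM in WT and from 1.97 ± 0.803 to 4.73 ± 1.44 in KO. For Itga1 the values were 1.18 ± 0.143 and 3.31 ± 0.434 CPM in WT, and 1.43 ± 1.005 and 4.24 ± 0.248 in KO. Of 9 tested proteases, hyaluronidases and link proteins among 14, 6 were called higher and 2 lower in both comparisons (medians 0.41 and 0.56). Adamts9, a protease that cleaves versican, rose from 0.882 ± 0.0657 to 3.43 ± 0.265 CPM in WT and from 1.09 ± 0.446 to 3.48 ± 0.432 in KO, and Tnfaip6, a hyaluronan-binding protein gene, fell from 45.0 ± 2.02 to 9.47 ± 0.4996 and from 44.2 ± 1.26 to 7.77 ± 1.68 CPM. Hyal1, a hyaluronidase gene, was called higher (log2 fold changes 1.15 and 1.09), as was the protease gene Adamts4 (0.76 and 1.21), and Adamts1 was called lower (-0.43 and -0.54).

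**Figure D5:**
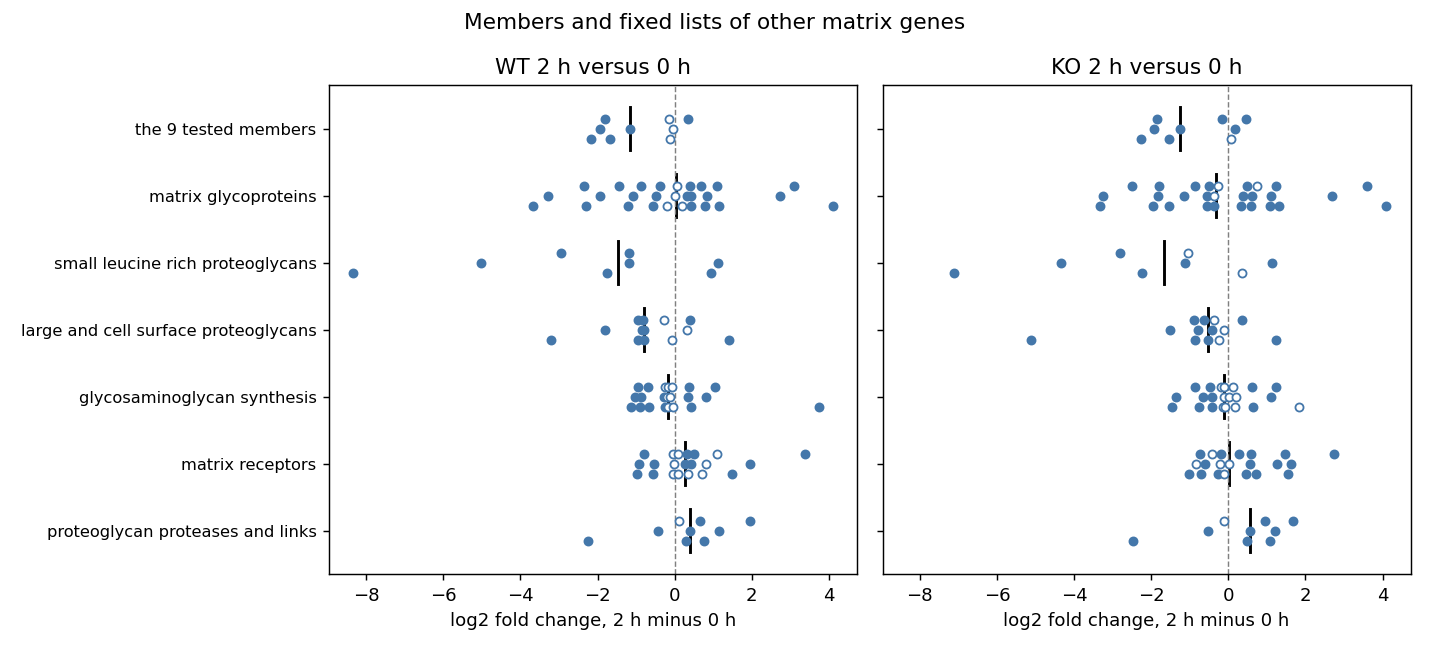
Log2 fold change between the 2 h and 0 h labels (x axis, 2 h minus 0 h) of the 9 tested members and of the tested genes of 6 lists (rows), in WT (left) and KO (right); each point is a gene, filled where called, and the vertical line is the median. Medians run from -1.48 to 0.41 in WT and from -1.68 to 0.56 in KO; the leftmost points, Fmod, are fitted values for a gene with no reads at 2 h.

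The genes nearest in pattern to the member with the largest fall and to the one with the largest rise were sought over the 8 libraries, by the Euclidean distance of centred log2 CPM. For Sparc they were Il4ra (distance 0.24), a cytokine receptor chain, Cyp51 (0.25), an enzyme of sterol synthesis, and Mcm5 (0.27), a helicase subunit of DNA replication. Il4ra gave a log2 fold change of -2.34 in WT and -2.32 in KO, Cyp51 -2.02 and -2.22, and Mcm5 -2.37 and -2.26. For Thbs1 the nearest were Mtor (0.09), a growth-controlling kinase, Vdac2 (0.09), a mitochondrial channel, and Abr (0.10). Their log2 fold changes were 0.36, 0.40 and 0.30 in WT and 0.47, 0.45 and 0.42 in KO.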

How the data were processed

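RNA was sequenced from 8 NIH3T3 libraries. For every library the authors deposited raw read counts, whole numbers for 23304 gene symbols with 4 summary lines. The submitters' processing notes name STAR 2.5.2b, HTSeq, bcl2fastq 2.15 and, as build, mm9. The sources used here do not give what each tool did, the annotation or whether counting used strand. The summary lines, 36.9 to 43.2% of reads, entered neither the library sizes nor the tests. They include reads that map to several places, so genes with near-identical copies may have too few reads. Overlapping and antisense transcripts cannot be told apart.

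The main analysis used R 4.3.3 and edgeR 4.0.16: filterByExpr (minimum count 10, minimum total 15), TMM scaling, and 1 robust quasi-likelihood fit of 12807 genes in 8 libraries with a coefficient per labelled group and 4 residual degrees of freedom. A call is an adjusted p (Benjamini-Hochberg, over all tested genes) below 0.05. SE is the log2 fold change over the root of the F statistic, and 95% intervals use the moderated degrees of freedom. Scaling was varied (RLE, or library size alone), as were the filter (none, or 1 CPM in 2 libraries), the tool (DESeq2 1.42.0) and the samples (only the libraries compared, or each library left out). A replicate block and a test of whether changes exceed a fold of 1.5 were also run. Where a group kept 1 library, it was assumed to vary like the others.

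Members and lists were chosen with earlier results of these data known. The text names the members, checks of the labels, up to 2 called genes per direction, list and comparison with a mean of 1 CPM in a group, and the 3 genes nearest in pattern to 2 members. It also names Prelp, the neighbours of Dcn and cell type markers, which are outside this rule. CPM per kilobase, the read ratios and the grouping of the 5 falling genes were added after seeing the data. Sequences and gene order are from RefSeq tables of GRCm38.p6, which is not the build of the counts, and lengths are from GENCODE M21.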

Additional observations from a re-analysis of the deposited data

How the results depend on the processing

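The falls of Sparc, Postn, Bgn, Dcn and Vcan between the 2 h and 0 h labels were called under each of the 16 alternatives in WT and in KO, including the fits without KO 0 h replicate 2, the library with most genes read. Leaving out each library gave 6 called members in WT and 6 to 7 in KO. Thbs1 lost its call only in the test against a fold of 1.5. That test called 5 members in each comparison, against 6 in WT and 8 in KO. Same-numbered libraries did not deviate together (correlations of deviations -0.053 to -0.0053 over 12807 genes), so the numbers are not taken as pairs. With the replicate block, 6 members were called in WT, 6 in KO and 0 between the KO and WT labels and in the interaction, and over all genes the block took calls between KO and WT at 0 h from 502 to 322.

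Small differences changed sign, in each case without being called. Under library size alone, Thbs2 in WT came to 0.025 and Tnc to 0.107. Between KO and WT at 0 h, Sparc was -0.0073 under RLE scaling and DESeq2, -0.021 under library size alone and -0.018 without a filter, and Thbs2 was -0.0077 under RLE scaling and DESeq2, -0.019 under library size alone and -0.019 without a filter. The cause of these was not tested. With 1 library left out, log2 fold changes ranged from -0.050 to 0.0065 for Tnc in WT and from -0.028 to 0.22 for Fn1 in KO. Between KO and WT at 0 h they ranged from -0.14 to 0.090 for Sparc, -0.090 to 0.017 for Postn, -0.057 to 0.012 for Thbs2, -0.018 to 0.12 for Vcan and -0.13 to 0.040 for Dcn. At 2 h they ranged from -0.071 to 0.18 for Fn1, -0.14 to 0.076 for Postn and -0.15 to 0.057 for Vcan. In the interaction they ranged from -0.20 to 0.046 for Sparc, -0.12 to 0.090 for Postn and -0.16 to 0.052 for Dcn.

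Over all genes, the test against a fold of 1.5 called 2939 genes in WT in place of 7837, 3012 in KO in place of 7829 and 5 in the interaction in place of 17. Between the genotype labels it called 110 in place of 502 (0 h) and 111 in place of 205 (2 h). Without a filter, 809 were called between KO and WT at 0 h and 113 in the interaction, where DESeq2 called 33. With 1 library left out these counts ran from 174 to 1073 at 0 h and from 6 to 91 in the interaction; the lowest came without WT 0 h replicate 1 and WT 2 h replicate 1, the highest without KO 0 h replicate 1. Library size alone changed the split of calls to 4823 higher and 3055 lower in WT, from 3853 and 3984, and to 4834 and 3036 in KO, from 3838 and 3991. A split of calls between KO and WT at 0 h of 339 higher and 163 lower became 306 and 191 under RLE scaling and 275 and 221 under library size alone. Depth limits Lum, at 0 to 3 reads a library.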
